A study of Mus musculus with 12 samples.

Results

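Interleukin 6 (IL-6) signalling was followed through 10 genes from ligand to feedback brake: Il6, the receptor genes Il6ra, Il6st, Lifr and Osmr, the transcription factor gene Stat3, and the feedback inhibitor genes Socs1, Socs2, Socs3 and Cish. The array carried 18 transcript probes for these 10 genes, chosen by the gene name in the array files, out of 41174 transcript probes in all. Only probes detected (flagged by the scanner software as well above background) in every array of 1 or more groups were kept. All 18 member probes and 27681 probes of the array met this, the latter standing for 15755 genes with a plain symbol. The Il6 probe was kept through LPS at 4 h alone, and the second Stat3 probe through the LPS groups alone, so a difference from saline was built into the selection of both.

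IL-6 family cytokines share the signal-transducing receptor chain gp130, the product of Il6st. A ligand-specific chain (Il6ra for IL-6, Lifr for leukaemia inhibitory factor, Osmr for oncostatin M) completes the receptor, JAK kinases then phosphorylate STAT3, and STAT3 switches on genes in the nucleus. One of these genes is Socs3, whose protein binds gp130 and the JAK kinases and shuts the signal off, while Cish and Socs2 are best known as targets and brakes of STAT5, and Socs1 as a brake on interferon signalling. In the brain, IL-6 family signalling is known for its part in the reaction of astrocytes and of vessels to inflammation in the blood.

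All 12 samples were whole hippocampus of male C57BL/6N mice aged 12 weeks that had received 50 nl of 20 mM kainate, a glutamate receptor agonist that brings on recurrent seizures, into the left dorsal hippocampus. After 3 weeks each mouse was injected once into the abdomen with saline or with 100 µg/kg of lipopolysaccharide (LPS, a bacterial surface molecule that sets off inflammation). Hippocampi were taken 4 or 24 h later, which gave 4 groups of 3 mice: saline 4 h, LPS 4 h, saline 24 h and LPS 24 h. The kainate lesion was shared by every group, no group without kainate was analysed here, and the labels do not give the side that was dissected.

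A level is here the log2 of a probe's processed fluorescence minus the 75th percentile of that array, so that 0 is the 75th percentile. At 4 h that percentile was 352 to 376 fluorescence units after saline and 633 to 700 after LPS, at 24 h 711 to 832 and 687 to 903, and 53.9% to 55.0% of transcript probes were well above background in saline 4 h against 58.2% to 70.9% in the other groups. All 4 h arrays were scanned in 1 run and all 24 h arrays in another, so time after injection and scan run cannot be told apart. The 6 slides each held 1 saline and 1 LPS array of the same time. All 10 markers of hippocampal neurons were well above background in every group on at least 1 array. A difference was called when its adjusted p in the limma fit over all probes was under 0.05. That fit called 71.0% of all 27681 probes after LPS at 4 h and 41.7% at 24 h, so a call alone sets no gene apart, and sizes and directions are given first. The replicates are separate samples by their labels, and the p-values measure the spread between them. In RNA of whole tissue, fewer cells of a type and less RNA per cell cannot be told apart.

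Sequences upstream of the ligand gene and of the main brake are shown because these genes had the largest differences of the 10 after LPS at 4 h. They are the 250 bases before the start of each gene, from RefSeq on build GRCm38.p6, at chr5:30012864-30013113 on the plus strand for Il6 and at chr11:117969367-117969616 on the minus strand for Socs3. The capitals in Socs3 mark a match to TTCNNNGAA, the letters bound by STAT factors. Those in Il6 mark a match to GGGNN directly followed by TTTCC, 1 form of the letters bound by NF-kB. Other forms were not searched.
Il6 upstream: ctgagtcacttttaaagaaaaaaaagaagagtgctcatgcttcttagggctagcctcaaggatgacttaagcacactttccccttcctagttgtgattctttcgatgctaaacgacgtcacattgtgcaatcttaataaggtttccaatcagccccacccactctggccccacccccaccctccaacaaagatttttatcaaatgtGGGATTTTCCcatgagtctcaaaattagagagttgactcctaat
Socs3 upstream: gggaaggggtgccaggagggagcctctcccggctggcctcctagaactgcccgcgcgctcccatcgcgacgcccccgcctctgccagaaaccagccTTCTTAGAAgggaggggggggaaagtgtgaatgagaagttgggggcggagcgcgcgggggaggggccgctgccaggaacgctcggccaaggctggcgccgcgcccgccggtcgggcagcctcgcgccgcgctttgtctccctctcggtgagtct

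Both strands were searched, and the matches overlap no match of the other motif. The STAT letters lie 154 to 146 bases before the start of Socs3 and the NF-kB letters 44 to 35 bases before the start of Il6. Among the 9 member genes with a promoter in the table, Socs3 alone held the STAT letters and Il6 alone this form of the NF-kB letters. Of 32851 mouse promoters of this length, 7.02% held the STAT letters and 1.41% this form of the NF-kB letters. A match is a stretch of letters and no measured binding.

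Both Il6ra probes and 2 of the 5 Lifr probes are shown. The array measured Il6ra through probes at chr3:89680743-89680802 (A_51_P415855) and chr3:89690491-89690550 (A_51_P415863) on the minus strand of build mm9, which start at bases 1208 and 834 of the transcript. Of the 5 Lifr probes, A_52_P579352 covers 807 bases of genome with 60 bases of probe (chr15:7134761-7135567, plus strand), so that it crosses a splice junction, and A_52_P297113 lies unbroken at chr15:7141059-7141118.
Il6ra A_51_P415855: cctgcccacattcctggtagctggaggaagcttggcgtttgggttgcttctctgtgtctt
Il6ra A_51_P415863: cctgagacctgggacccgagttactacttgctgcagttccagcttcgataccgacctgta
Lifr A_52_P579352: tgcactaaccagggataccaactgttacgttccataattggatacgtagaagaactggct
Lifr A_52_P297113: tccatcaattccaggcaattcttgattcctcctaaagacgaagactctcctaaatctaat

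At 4 h, 11 of the 18 probes were higher after LPS than after saline, 2 were lower and 5 were neither, while 31.6% of all probes were higher and 39.4% lower. The 11 include Il6 and the second Stat3 probe, whose difference from saline was built into the selection. At 24 h, 10 were higher, 2 lower and 6 neither, against 20.8% and 20.9% of all probes. The median difference of the 18 probes was 0.96 log2 units at 4 h and 0.39 at 24 h, beside -0.08 and 0.003 over all probes. The LPS and saline arrays did not overlap on 13 of the 18 probes at 4 h, near the 74.6% of all probes, and on 15 of 18 at 24 h, where 53.7% of all probes did not overlap. Every called probe went the same way on all 3 slides of its time.

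**Figure D1:**
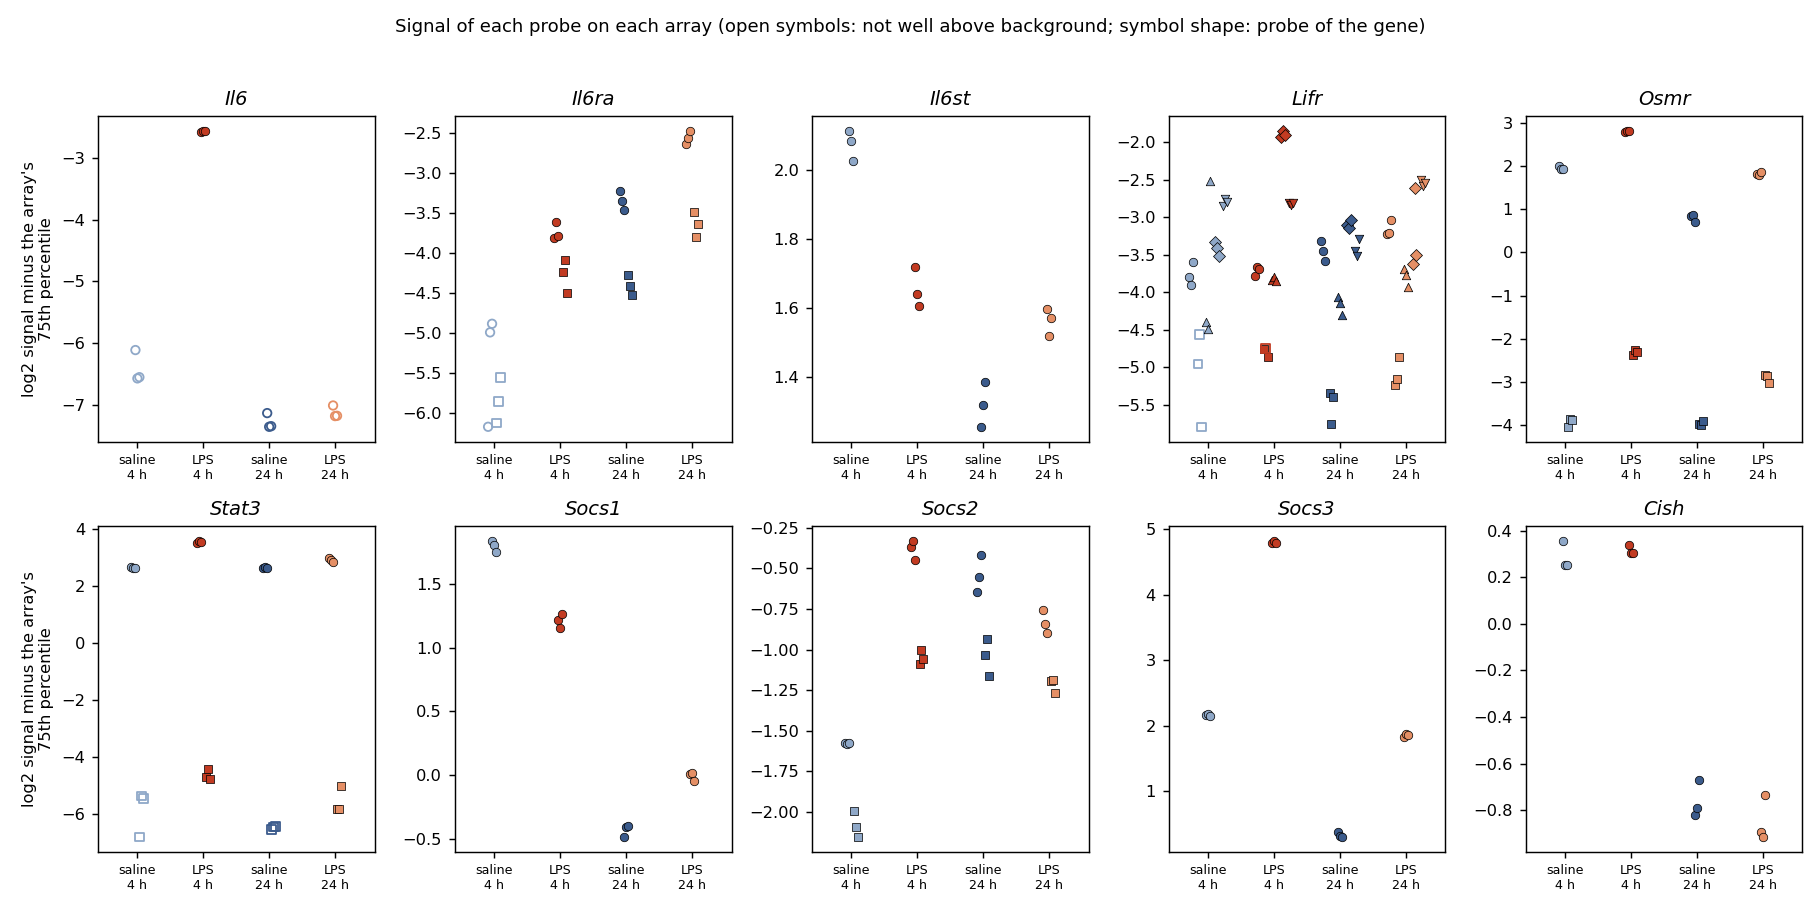
Level of each probe of the 10 genes on each of the 12 arrays (log2 of the processed signal minus the array's 75th percentile, separate vertical scale per gene). Each symbol is 1 array, symbol shapes are probes of the same gene, and open symbols are signals not well above background. Socs3 sits at 4.79 to 4.82 on the LPS 4 h arrays and at 2.15 to 2.18 on the saline 4 h arrays, and Il6 is well above background on the LPS 4 h arrays alone.

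Il6, the ligand gene, was detected in 1 group of the 4. Its probe (A_51_P217218, chr5:30346362-30346421, plus strand of mm9) was printed 10 times on each array and stood at -2.58, -2.56 and -2.57 on the LPS 4 h arrays. The saline 4 h arrays gave -6.11, -6.57 and -6.55, the saline 24 h arrays -7.14, -7.36 and -7.35, and the LPS 24 h arrays -7.01, -7.18 and -7.18, all of them not well above background. The 3 LPS 4 h arrays were thus far above all 9 others. The probe was kept through this group alone, so a difference from saline was built into its selection. Because saline 4 h gave only a bound, Il6 was at least 4.47-fold higher after LPS at 4 h (fitted difference 3.84 ± 0.12 log2 units, SE, n = 3 arrays a group, limma adjusted p = 2.6e-09), the bound being set, per saline array, against the dimmest signal that still counted as detected or the probe's own signal where that was brighter. With normexp background correction, which compresses dim signals, the fitted difference was 0.80 (limma adjusted p = 0.00039). At 24 h neither group was well above background on any array and no fold is given.

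Il6ra, which encodes the chain that binds IL-6 itself, was higher after LPS at both times. Probe A_51_P415863 stood at 4 h at -6.13, -5.86 and -5.56 after saline and at -4.24, -4.10 and -4.50 after LPS. At 24 h the values were -4.28, -4.42 and -4.53 after saline and -3.48, -3.80 and -3.63 after LPS. Saline 4 h was the lowest group and not well above background on any array, LPS 24 h was the highest, and LPS 4 h lay at the level of saline 24 h. It was at least 1.37-fold higher after LPS at 4 h (fitted 1.57 ± 0.15, limma adjusted p = 7.2e-06) and 1.70-fold higher at 24 h (0.77 ± 0.15, limma adjusted p = 0.003). The second probe, A_51_P415855, gave at least 2.00-fold at 4 h (fitted 1.62 ± 0.28, limma adjusted p = 0.00045) and 1.73-fold at 24 h (0.79 ± 0.28, limma adjusted p = 0.045). Both 4 h calls were lost with normexp background correction, where the differences were 0.10 and 0.15 (limma adjusted p = 0.72 and 0.55). The 24 h calls were lost with it as well, at 0.33 and 0.48 (limma adjusted p = 0.38 and 0.11), and that of A_51_P415855 also when any 1 of 9 arrays was left out (0.73 to 0.85, highest limma adjusted p = 0.12) or slide was a block (limma adjusted p = 0.053). Its responses at the 2 times did not differ past the threshold (-0.83 ± 0.39, limma adjusted p = 0.091), but did without saline 4 h replicate 1 (-0.41) or 3 (-1.06).

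Il6st, the gp130 chain shared by the whole family, moved in opposite directions at the 2 times. Its probe (A_51_P473888, chr13:113296586-113296645, plus strand) stood at 2.11, 2.08 and 2.02 in saline 4 h and at 1.72, 1.64 and 1.61 in LPS 4 h. It stood at 1.26, 1.32 and 1.39 in saline 24 h and at 1.60, 1.52 and 1.57 in LPS 24 h. Every LPS 4 h array was below every saline 4 h array, and every LPS 24 h array was above every saline 24 h array. Il6st fell by 0.42 ± 0.05 log2 units at 4 h (limma adjusted p = 1.6e-05) and rose by 0.24 ± 0.05 at 24 h (limma adjusted p = 0.0021). The scaled levels of the 2 LPS groups were closer to each other than those of the 2 saline groups, and the cause was not tested. The 24 h call was lost with median scaling (0.14, limma adjusted p = 0.092). Before the array scaling, the processed fluorescence of Il6st at 4 h was 1521 to 1560 after saline and 1930 to 2304 after LPS. At 24 h it was 1856 to 1988 after saline and 2041 to 2732 after LPS. The fall at 4 h was thus one of the scaled level only.

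Osmr, the oncostatin M receptor, was higher after LPS at both times on both of its probes. The brighter probe (A_51_P319460, chr15:6763686-6763745, minus strand) stood at 2.00, 1.93 and 1.94 in saline 4 h and at 2.79, 2.81 and 2.80 in LPS 4 h, then at 0.84, 0.87 and 0.71 in saline 24 h and at 1.82, 1.80 and 1.86 in LPS 24 h. LPS arrays were above the saline arrays of their own time throughout, while saline 4 h lay slightly above LPS 24 h. The rise was 0.85 ± 0.04 log2 units at 4 h, a 1.80-fold difference (limma adjusted p = 6.7e-08), and 1.02 ± 0.04 at 24 h, or 2.03-fold (limma adjusted p = 1e-07). The dimmer probe (A_52_P495729, chr15:6765043-6765102) rose 3.05-fold at 4 h (1.61 ± 0.06) and 2.08-fold at 24 h (1.06 ± 0.06, limma adjusted p = 1.2e-08 and 1.1e-06). The probes differed in which time had the larger response: the brighter gained 0.18 ± 0.06 from 4 h to 24 h (limma adjusted p = 0.027) and the dimmer fell by 0.55 ± 0.09 (limma adjusted p = 0.00034). The gain of the brighter probe was lost without saline 4 h replicate 1 (0.15, limma adjusted p = 0.061), LPS 4 h replicate 1 or 3, or LPS 24 h replicate 3. It was also lost with slide as a block (limma adjusted p = 0.074), no filter (0.056), normexp background correction (0.33), quantile normalization (0.11), the percentile over detected probes (0.26) and the deposited matrix (0.32). The smaller 24 h response of the dimmer probe was lost with normexp background correction, where the difference was 0.047 (limma adjusted p = 0.88).

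Lifr, the chain for leukaemia inhibitory factor, was measured by 5 probes that differed most from each other at 4 h. The junction probe A_52_P579352 stood at -2.85, -2.76 and -2.80 in saline 4 h and -2.81, -2.83 and -2.80 in LPS 4 h, then at -3.44, -3.52 and -3.30 in saline 24 h and -2.50, -2.58 and -2.55 in LPS 24 h. The 4 h groups overlapped, with a difference of -0.02 ± 0.05 (limma adjusted p = 0.80) and a 95% interval from -0.14 to 0.10, or -0.18 with median scaling (limma adjusted p = 0.022), while at 24 h LPS was 1.84-fold higher (0.88 ± 0.05, limma adjusted p = 1.3e-06). Probe A_52_P438170 (chr15:7145390-7145449), which starts farthest along the transcript, did the reverse. It stood at -3.33, -3.41 and -3.51 in saline 4 h against -1.93, -1.85 and -1.91 in LPS 4 h, a 2.87-fold rise (1.52 ± 0.21, limma adjusted p = 0.00011).

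At 24 h this last probe gave -3.10, -3.14 and -3.04 in saline and -3.62, -2.61 and -3.51 in LPS, which overlapped (-0.15 ± 0.21, limma adjusted p = 0.62). LPS 24 h replicate 2 was the high array, and without it the difference was -0.47 (limma adjusted p = 0.00055). Probe A_51_P113182 was not called at 4 h (0.05 ± 0.09, limma adjusted p = 0.63) and rose at 24 h (0.30 ± 0.09, limma adjusted p = 0.027), a call lost with slide as a block (limma adjusted p = 0.052), array weights (0.066), quantile normalization (0.067), median scaling (0.083), the deposited matrix (0.091) and normexp background correction (0.72), and without saline 24 h replicate 2 or 3 or LPS 24 h replicate 3 (lowest value 0.23, limma adjusted p = 0.097). Probe A_52_P297113 stood at -4.39, -4.49 and -2.52 in saline 4 h and at -3.84, -3.80 and -3.85 in LPS 4 h. The third saline array was the high one, so the difference was -0.03 ± 0.42 (limma adjusted p = 0.96) and became 0.61 without saline 4 h replicate 3 (limma adjusted p = 0.00015). At 24 h it stood at -4.07, -4.14 and -4.30 after saline and at -3.69, -3.78 and -3.92 after LPS, which did not overlap. That difference of 0.37 ± 0.42 was not called (limma adjusted p = 0.53), but was without saline 4 h replicate 3 (limma adjusted p = 0.0038) or with the 24 h groups alone (0.02). Probe A_52_P192699 was not well above background in saline 4 h and was called at neither time (0.31 ± 0.26 and 0.41 ± 0.26), though without saline 4 h replicate 2 the 4 h value was 0.59 (limma adjusted p = 0.0497). At 24 h, 4 of the 5 probes thus had values above 0, and 2 of them were called.

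**Figure D2:**
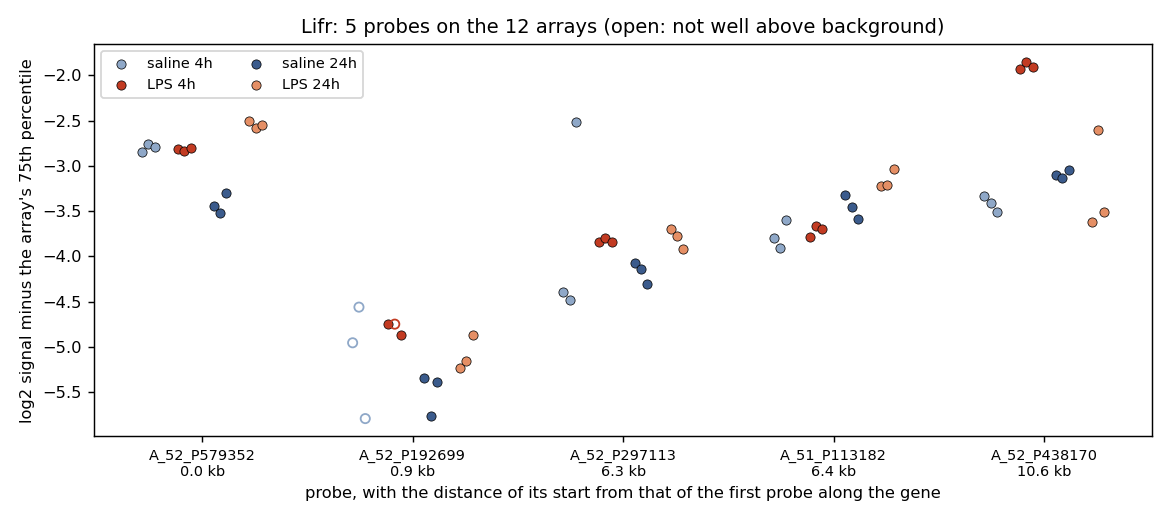
Levels of the 5 Lifr probes on the 12 arrays, ordered by their start along the gene (kb from the first probe, log2 signal minus the array's 75th percentile on the vertical axis). Each point is 1 array and open points are not well above background. The first probe rises at 24 h and not at 4 h, and the last stands at -1.93 to -1.85 on the LPS 4 h arrays, above all other arrays.

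Stat3, the transcription factor that carries the signal to the nucleus, rose most at 4 h. Its main probe (A_51_P201480, chr11:100749598-100749657, minus strand) was printed 10 times per array and stood at 2.67, 2.66 and 2.66 in saline 4 h and at 3.53, 3.59 and 3.55 in LPS 4 h. It stood at 2.64, 2.67 and 2.64 in saline 24 h and at 3.00, 2.92 and 2.85 in LPS 24 h. The saline groups lay at 1 level, LPS 24 h above them, and LPS 4 h highest, with no overlap between LPS and saline. The rise was 1.86-fold at 4 h (0.89 ± 0.04, limma adjusted p = 1.9e-08) and 1.21-fold at 24 h (0.27 ± 0.04, limma adjusted p = 0.00032), and the response was 0.62 ± 0.05 log2 units smaller at 24 h (limma adjusted p = 3.9e-06). The second probe, A_52_P569499 (chr11:100746462-100746521), was below background in both saline groups. It was kept through the LPS groups alone, so a difference from saline was built in. It was at least 1.08-fold higher after LPS at 4 h (fitted 1.26 ± 0.36, limma adjusted p = 0.01), a difference that was -0.00033 with normexp background correction. At 24 h it gave 0.92 ± 0.36 (limma adjusted p = 0.068), which passed the threshold without saline 4 h replicate 1 (limma adjusted p = 0.0071).

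Socs3, the brake that STAT3 induces, had the largest rise of the feedback genes at both times. Its probe (A_51_P474459, chr11:117827480-117827539, minus strand) stood at 2.17, 2.18 and 2.15 in saline 4 h and at 4.79, 4.82 and 4.80 in LPS 4 h, and then at 0.39, 0.32 and 0.31 in saline 24 h and at 1.84, 1.88 and 1.87 in LPS 24 h. The 4 groups formed 4 separate levels, and saline 4 h was higher than LPS 24 h. Socs3 rose 6.20-fold at 4 h (2.63 ± 0.03, limma adjusted p = 2.9e-11) and 2.87-fold at 24 h (1.52 ± 0.03, limma adjusted p = 1.2e-09). Within slides the difference was 2.61 to 2.67 at 4 h and 1.45 to 1.56 at 24 h. The response was 1.11 ± 0.04 log2 units smaller at 24 h (limma adjusted p = 2.1e-08).

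Socs1, the brake on interferon signalling, went the other way from Socs3 at 4 h. Its probe (A_51_P279606, chr16:10783951-10784010, minus strand) stood at 1.84, 1.80 and 1.75 in saline 4 h and at 1.22, 1.15 and 1.26 in LPS 4 h, then at -0.49, -0.41 and -0.40 in saline 24 h and at 0.01, 0.02 and -0.05 in LPS 24 h. Both 4 h groups were above both 24 h groups, and the LPS arrays lay below saline at 4 h and above it at 24 h. Socs1 fell by 0.59 ± 0.04 log2 units at 4 h (limma adjusted p = 6.2e-07) and rose by 0.42 ± 0.04 at 24 h (limma adjusted p = 3.1e-05). The difference between these responses was 1.01 ± 0.06 (limma adjusted p = 2.6e-07). Before the array scaling, the processed fluorescence of Socs1 at 4 h was 1258 to 1284 after saline and 1459 to 1628 after LPS. The fall at 4 h was thus one of the scaled level only.

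Socs2 and Cish, both known as STAT5 targets, parted. The Socs2 probe A_51_P107362 (chr10:94875066-94875125, minus strand) stood at 4 h at -1.58, -1.58 and -1.57 after saline and at -0.37, -0.33 and -0.44 after LPS. At 24 h the values were -0.64, -0.55 and -0.41 after saline and -0.76, -0.84 and -0.90 after LPS. Saline 4 h was the low group, and the other 3 groups lay within a narrow range. Socs2 rose 2.29-fold at 4 h (1.20 ± 0.06, limma adjusted p = 6e-08) and fell by 0.30 ± 0.06 log2 units at 24 h (limma adjusted p = 0.0031). The second probe, A_52_P84037 (chr10:94850747-94850806), rose by 1.03 ± 0.06 at 4 h and fell by 0.17 ± 0.06 at 24 h (limma adjusted p = 2e-07 and 0.049), and the 24 h call was lost with slide as a block (limma adjusted p = 0.053) and when any 1 of 9 arrays was left out, the weakest being without saline 24 h replicate 2 (-0.12, limma adjusted p = 0.16). Cish (A_51_P470715, chr9:107204196-107204255, plus strand) stood at 0.36, 0.25 and 0.25 in saline 4 h and at 0.34, 0.30 and 0.30 in LPS 4 h, then at -0.82, -0.79 and -0.67 in saline 24 h and at -0.90, -0.92 and -0.73 in LPS 24 h. LPS and saline overlapped at both times, with 95% intervals of the difference from -0.10 to 0.16 at 4 h and from -0.22 to 0.04 at 24 h (limma adjusted p = 0.68 and 0.26).

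**Figure D3:**
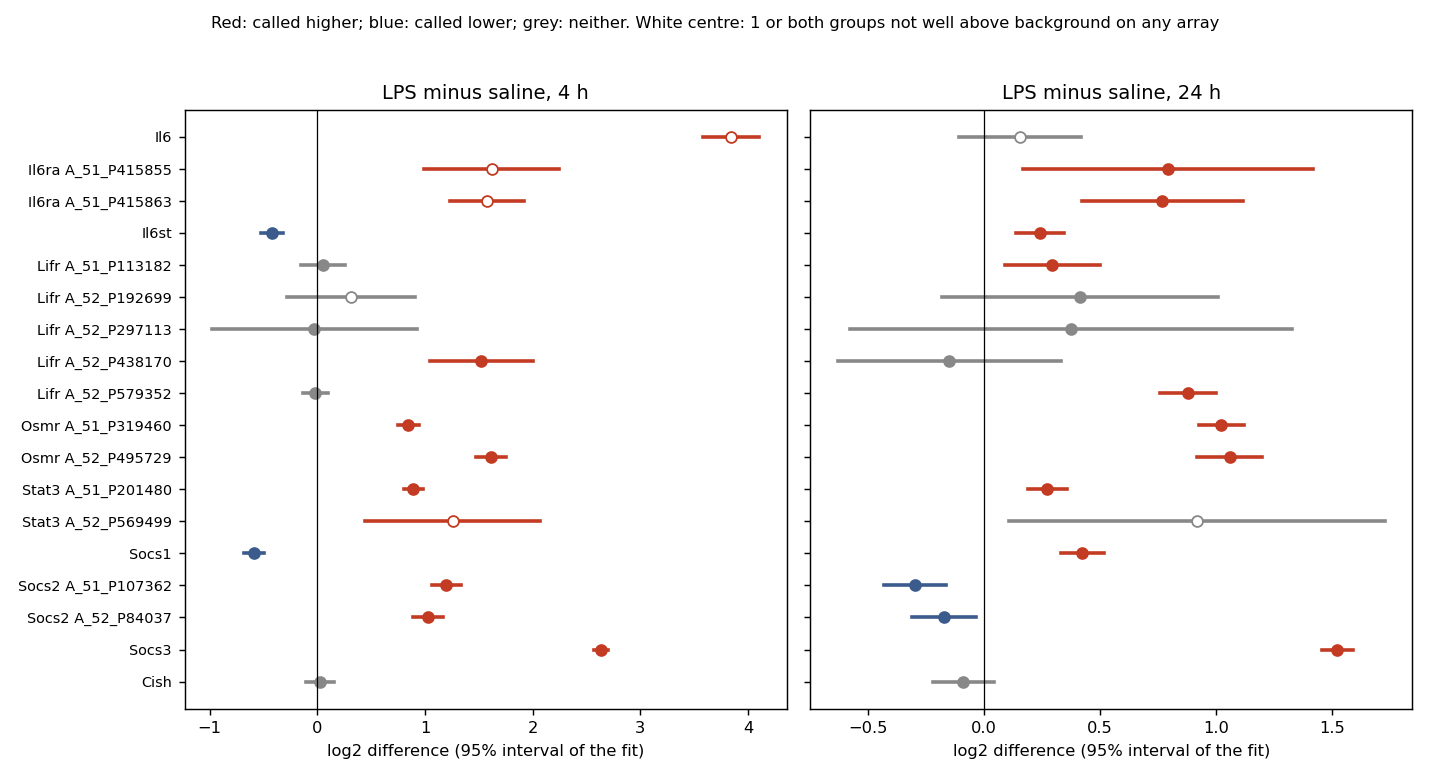
Difference between LPS and saline for each of the 18 probes at 4 h (left) and 24 h (right), in log2 units with the 95% interval of the fit (3 arrays per group, separate horizontal scales). Il6st and Socs1 lie below 0 at 4 h and above it at 24 h, Socs2 does the opposite, and Socs3 is at 2.63 and 1.52.

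The response to LPS differed between the times for 12 of the 18 probes, 4 of them with a higher value at 24 h (Il6st, Socs1, and 1 probe each of Lifr and Osmr) and 8 with a lower one (Il6, Stat3, Socs3, both Socs2 probes, and 1 probe each of Il6ra, Lifr and Osmr). Over all probes 65.9% were called in this comparison, 37.6% higher and 28.3% lower, so the number of member probes called is near the background. Cish was not called (-0.12 ± 0.08, limma adjusted p = 0.24). The largest of these differences was that of Il6 at -3.69 ± 0.17 log2 units, which rests on signals not well above background in 3 of the 4 groups.

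The saline groups, which differ in time after injection and in scan run, also differed from each other. Between saline 24 h and saline 4 h, 12 of the 18 probes were called, 5 higher and 7 lower at 24 h, against 79.5% of all probes (38.0% higher and 41.5% lower), and the saline groups did not overlap on 81.5% of all probes. In scaled level, Socs1 was lower in saline 24 h by 2.23 ± 0.04 log2 units, Socs3 by 1.83 ± 0.03, Osmr (A_51_P319460) by 1.15 ± 0.04, Cish by 1.05 ± 0.06 and Il6st by 0.75 ± 0.05. Before the array scaling, Il6st fluorescence was higher in saline 24 h, at 1856 to 1988 against 1521 to 1560 in saline 4 h. Osmr (1162 to 1490 against 1405 to 1440) and Cish (442 to 470 against 438 to 450) overlapped. Socs1 (538 to 594 against 1258 to 1284) and Socs3 (879 to 1090 against 1586 to 1670) were lower before scaling too. Both Socs2 probes were higher in saline 24 h, by 1.04 ± 0.06 each. Stat3 (A_51_P201480) did not pass the test in that comparison, with a difference of -0.01 ± 0.04 (limma adjusted p = 0.80), but was 0.32 higher in saline 24 h after quantile normalization.

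Levels of cell type markers also differed between the saline groups, where 32.2% of all 15755 genes were higher in saline 24 h and 50.4% lower. Of 8 microglia markers, 7 were lower in saline 24 h than in saline 4 h and none was higher, and their summed level, in multiples of the array's 75th percentile, was 271 to 280.3 after saline and 208 to 218 after LPS at 4 h, and 92.2 to 96.9 after saline and 134 to 135 after LPS at 24 h. Of 8 astrocyte markers, 5 were lower and 3 higher in saline 24 h, near the shares over all genes, with sums at 4 h of 484 to 504 after saline and 303 to 317 after LPS, and at 24 h of 199 to 203 after saline and 219.9 to 223 after LPS. By count the astrocyte markers were mixed after LPS at 4 h, with 3 higher and 4 lower (median -0.07, beside -0.17 over all genes). At 24 h 5 were higher and 2 lower. The microglia and astrocyte sums, which bright genes weigh on most, ran in the order of the Il6st and Socs1 levels at 4 h and 24 h within each time, lower after LPS at 4 h and higher after LPS at 24 h. Endothelial markers did the same: 9 of 10 were lower after LPS at 4 h and 9 of 10 higher at 24 h, while over all genes 28.6% rose and 46.8% fell at 4 h, and 24.1% rose and 23.6% fell at 24 h. Hippocampal neuron markers went the way of Socs2: 9 of 10 were higher and none lower in saline 24 h than in saline 4 h, 6 rose and 1 fell with LPS at 4 h, and 5 fell and none rose at 24 h. Their sums were 108 to 110.2 after saline and 133 to 137 after LPS at 4 h, and 173 to 177 after saline and 145 to 151 after LPS at 24 h. Of 6 oligodendrocyte markers 5 were lower in saline 24 h, and of 6 thalamus markers 4 were lower. Thalamus sums were 32.3 to 33.4 after saline and 19.7 to 19.9 after LPS at 4 h. At 24 h they were 10.9 to 11.4 and 13.1 to 14.5. Choroid plexus, pericyte and lymphocyte sums were likewise lower after LPS at 4 h and higher at 24 h, so this order was not particular to glia and endothelium. Oligodendrocyte, anterior pituitary and red blood cell sums were lower after LPS at both times, and neutrophil and monocyte sums higher. The part of these cell type markers in the Il6st, Socs1 and Socs2 results was not tested.

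Replacing the saline arrays of the same time by those of the other time showed which results keep their direction against either control. Of the 11 probes higher after LPS at 4 h, 8 stayed higher against saline 24 h (Il6, Lifr, both Osmr probes, both Stat3 probes, Socs3 and 1 Socs2 probe). Socs3 was then 4.46 ± 0.03 log2 units above control, Osmr (A_51_P319460) 2.00 ± 0.04 and Stat3 (A_51_P201480) 0.90 ± 0.04. Both probes lower after LPS at 4 h turned higher, Il6st by 0.34 ± 0.05 and Socs1 by 1.64 ± 0.04. The Il6ra probes were at -0.39 ± 0.28 and 0.13 ± 0.15 and the Socs2 probes at 0.16 ± 0.06 and -0.01 ± 0.06, so that 1 of these 4 probes, Socs2 A_51_P107362, was still called higher (limma adjusted p = 0.04). Cish became higher by 1.08 ± 0.06 (limma adjusted p = 1.1e-07).

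At 24 h the same exchange kept 6 of the 10 higher calls, on both Il6ra probes, 2 Lifr probes, 1 Osmr probe and the main Stat3 probe. The other 4 turned lower in scaled level: Socs3 by 0.31 ± 0.03 log2 units, Socs1 by 1.80 ± 0.04, Il6st by 0.51 ± 0.05 and Osmr A_51_P319460 by 0.13 ± 0.04. Before the array scaling, Socs1 was lower in LPS 24 h than in saline 4 h, while Socs3, Il6st and this Osmr probe were higher. Stat3 (A_51_P201480) gave 0.27 against saline of its own time and 0.26 against the other, and was the member probe whose saline levels were closest with the scaling of the main fit. With quantile normalization its saline groups differed by 0.32, and those of Lifr A_51_P113182 by 0.13. These comparisons share their LPS arrays with the main ones and are given side by side as values.

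**Figure D4:**
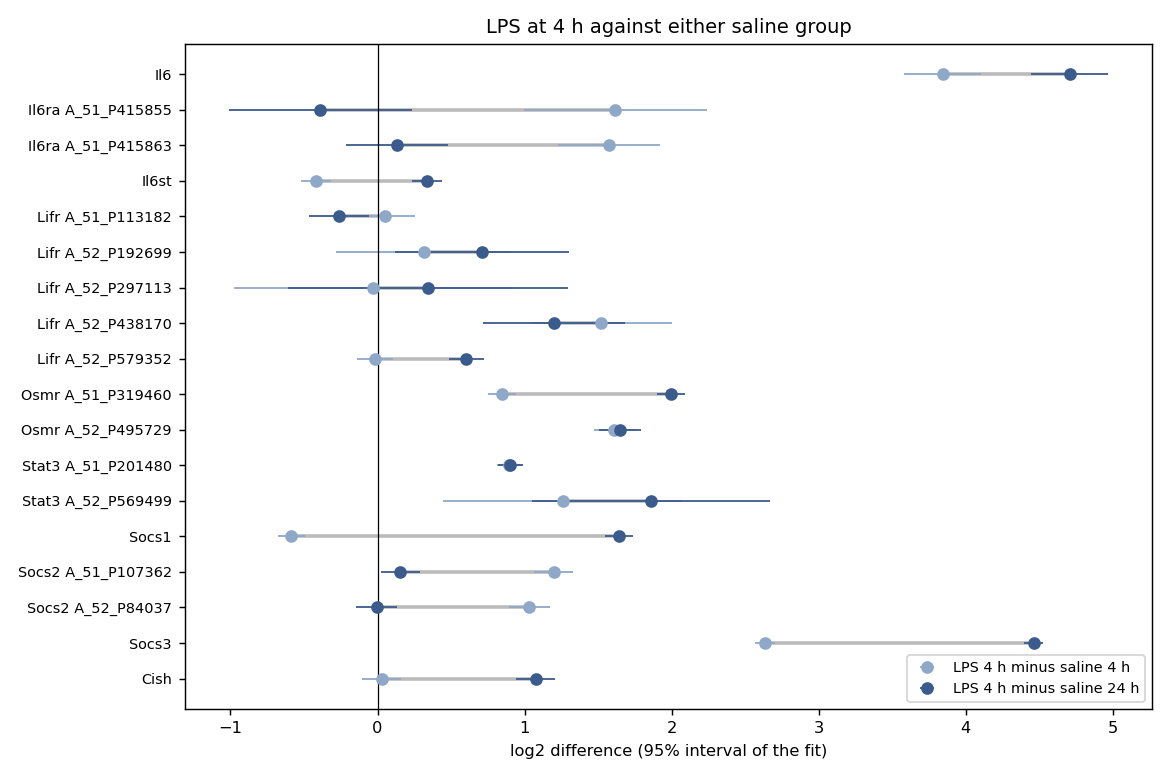
Difference of the LPS 4 h arrays from saline 4 h (light) and from saline 24 h (dark) for each of the 18 probes, in log2 units with 95% intervals of the fit. Stat3 A_51_P201480 gives 0.89 and 0.90, Socs1 gives -0.59 and 1.64, and Socs3 gives 2.63 and 4.46.

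Other genes of the pathway were read from lists of ligands, receptors, JAK and STAT genes, brakes and target genes, in which each gene is represented by its brightest kept probe. Their counts stand beside the shares of all genes, 28.6% called higher and 46.8% lower for 4 h, and 24.1% and 23.6% for 24 h. Between saline 24 h and saline 4 h the median of each list was below 0. It ran from -1.23 for the ligands to -0.24 for the JAK and STAT genes, beside -0.19 over all genes. Among 8 measured IL-6 family ligand genes, 2 were higher, 4 lower and 2 neither after LPS at 4 h, with a median of -0.16 log2 units, and 5 were higher and 3 neither at 24 h (median 0.31). Osm, which encodes oncostatin M, the ligand of Osmr, was higher at both times (0.68 ± 0.15 and 0.60 ± 0.15, limma adjusted p = 0.0026 and 0.01), and both calls were lost with normexp background correction (0.23 and 0.12, limma adjusted p = 0.25 and 0.76), the 24 h call also in the deposited matrix (0.09, limma adjusted p = 0.31). Cntf, a factor that supports neurons, fell by 0.79 ± 0.05 at 4 h and rose by 0.65 ± 0.05 at 24 h, and Ctf1 (cardiotrophin 1) fell by 0.85 ± 0.09 and rose by 0.46 ± 0.09. Clcf1 was not well above background in either 4 h group and rose by 1.05 ± 0.19 at 24 h (limma adjusted p = 0.0018), a call lost with normexp background correction (0.31, limma adjusted p = 0.53).

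Among 7 measured receptor genes, 3 were higher, 2 lower and 2 neither at 4 h (median -0.02), and all 7 were higher at 24 h (median 0.68), beside medians over all genes of -0.17 at 4 h and -0.003 at 24 h. Lifr was represented here by A_52_P579352, whose 4 h value is the list median. Its probe A_52_P438170 gave 1.52 at 4 h, called higher, and -0.15 at 24 h, not called. The counts and medians thus depend on the Lifr probe used. Apart from the member genes, Il11ra1, the interleukin 11 receptor, fell by 0.71 ± 0.03 at 4 h and rose by 0.13 ± 0.03 at 24 h. Cntfr, the receptor of Cntf, rose at both times (0.28 ± 0.06 and 0.37 ± 0.06), but the 4 h call was lost with median scaling (0.12, limma adjusted p = 0.17). Il27ra rose at 24 h (0.68 ± 0.24, limma adjusted p = 0.045), a call lost when any 1 of 9 arrays was left out (0.61 to 0.80 over all 12, highest limma adjusted p = 0.12) and with normexp background correction, quantile normalization, the deposited matrix, no filter or the replicate block (0.12 to 0.68, highest limma adjusted p = 0.84). With median scaling the 24 h calls of Il6ra (A_51_P415855, 0.69), Il6st (0.14), Il27ra (0.58) and Il11ra1 (0.03) were lost (limma adjusted p = 0.051, 0.092, 0.059 and 0.57).

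Of 10 JAK and STAT genes, 6 were higher, 1 lower and 3 neither at each time, beside 28.6% and 24.1% of all genes called higher, with medians of 0.35 and 0.43 log2 units. Jak3 rose by 1.12 ± 0.06 at 4 h and 0.90 ± 0.06 at 24 h. Stat2, which carries interferon signals, rose by 0.71 ± 0.04 at 4 h and by 0.52 ± 0.04 at 24 h. Jak1, a kinase bound to gp130, rose by 0.26 ± 0.03 at 4 h, and Stat5a rose by 0.44 ± 0.05 at 4 h and 0.60 ± 0.05 at 24 h. Tyk2, another kinase of cytokine receptors, rose by 0.33 ± 0.05 at 24 h, a call lost with normexp background correction (0.26, limma adjusted p = 0.096).

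Of the 8 SOCS family genes, 3 were higher, 3 lower and 2 neither at 4 h (median -0.08), near the 28.6% and 46.8% of all genes, and at 24 h 4 were higher, 1 lower and 3 neither (median 0.11), beside 24.1% and 23.6%. Beside the member genes, Socs4 rose by 0.31 ± 0.06 at 4 h, and Socs6 fell by 0.31 ± 0.04 at 4 h and rose by 0.21 ± 0.04 at 24 h. With median scaling the 4 h call of Socs4 (0.14, limma adjusted p = 0.065) and the 24 h call of Socs6 (0.11, limma adjusted p = 0.091) were lost, and that of Socs4 also with normexp background correction (0.18, limma adjusted p = 0.11). Socs7 rose by 0.85 ± 0.25 at 24 h from a saline level that was well above background on 1 array (limma adjusted p = 0.02). That call was lost with normexp background correction (0.18), quantile normalization (0.65), the deposited matrix (0.13) and slide as a block (limma adjusted p = 0.85, 0.38, 0.12 and 0.065), and when any 1 of 3 arrays was left out (highest limma adjusted p = 0.063). Among 10 other brakes, 5 were higher and 3 lower at 4 h, and 6 higher and 1 lower at 24 h, beside 28.6% and 46.8% of all genes at 4 h and 24.1% and 23.6% at 24 h. Usp18, which blocks the interferon receptor, rose by 0.71 ± 0.05 at 4 h and 1.97 ± 0.05 at 24 h, and Ptpn6, the phosphatase SHP-1 of blood cells and microglia, rose by 1.06 ± 0.05 at 24 h. Ptpn1, a phosphatase that acts on JAK kinases, rose by 0.50 ± 0.04 at 4 h, Ptpn11, the phosphatase SHP-2, fell by 0.35 ± 0.04 at 4 h, Sh2b3 rose by 0.32 ± 0.04 and 0.25 ± 0.04, and Pias3, an inhibitor of STAT3, rose by 0.32 ± 0.06 at 24 h. The fall of Ptpn11 became a rise of 0.15 under quantile normalization. The 24 h calls of Sh2b3 (0.21) and Pias3 (0.27) were lost with normexp background correction (limma adjusted p = 0.069 and 0.093), and that of Sh2b3 with median scaling (0.15, limma adjusted p = 0.052).

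Genes known as targets of STAT3 or as acute phase genes were higher in the majority: 14 of 20 at 4 h with 1 lower, and 16 of 20 at 24 h with none lower and 4 neither. Over all genes 28.6% were called higher and 46.8% lower for 4 h, and 24.1% and 23.6% for 24 h. The medians of the list were 0.58 and 0.82 log2 units. Between saline 24 h and saline 4 h, 15 of the 20 genes were lower and 5 higher, with a median of -1.05. Over all genes 50.4% were lower and 32.2% higher in that comparison. Saa3, a serum amyloid A gene, was at least 70.4-fold higher at 4 h (fitted 6.20 ± 0.13, limma adjusted p = 3.9e-10) and rose by 7.21 ± 0.13 at 24 h, where saline was well above background on 1 array. Over the alternatives in processing and control, the Saa3 difference was 3.68 to 7.80 log2 units at 4 h and 3.84 to 7.24 at 24 h. The bound thus holds for the main processing only. Hp (haptoglobin) rose by 2.88 ± 0.07, Il4ra by 2.24 ± 0.05 and Bcl6, a repressor of transcription, by 0.99 ± 0.03 at 4 h. Lrg1, a secreted glycoprotein of inflamed vessels, rose by 2.30 ± 0.03, Timp1, an inhibitor of matrix proteases, by 1.70 ± 0.05 and Serpina3n, a protease inhibitor of reactive astrocytes, by 1.15 ± 0.03 at 24 h.

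Most neutrophil and blood monocyte markers were called higher after LPS, while red blood cell markers fell. Over all genes 28.6% were called higher and 46.8% lower for 4 h, and 24.1% and 23.6% for 24 h. All 4 red blood cell markers fell with LPS at either time (medians -0.75 and -0.93). With LPS at 4 h, 5 of 8 lymphocyte markers fell and none rose (median -0.59, beside -0.17 over all genes). The number that fell is little above the share over all genes. By 24 h, 4 of them rose and none fell (median 0.40). Of 9 neutrophil markers, 6 were higher at each time and 1 was lower at 4 h, and their summed level was 1.33 to 1.42 after saline and 6.83 to 7.04 after LPS at 4 h, and 1.17 to 1.20 after saline and 2.31 to 2.42 after LPS at 24 h. Of these 9 markers, 5 were not well above background on any saline 4 h array and 2 on any LPS 4 h array. Of 5 blood monocyte markers, 4 were higher at 4 h and all 5 at 24 h, with sums of 19.4 to 19.7 after saline and 20.3 to 21.1 after LPS at 4 h, and 9.30 to 9.95 after saline and 20.7 to 22.5 after LPS at 24 h. The part of neutrophils and monocytes in the rise of the target genes was not tested. Of 6 STAT5 target genes, which include Socs2 and Cish, 4 were higher and 1 lower at 4 h, and 1 was higher and 2 lower at 24 h (medians 0.45 and -0.06). The 24 h counts are near the shares over all genes. Igf1, a growth factor, fell by 0.27 ± 0.04 at both times, and Pim2, a survival kinase, rose by 0.22 ± 0.04 at 4 h. The 4 h call of Pim2 was lost with median scaling (0.05, limma adjusted p = 0.41) and that of Igf1 in the deposited matrix (-0.20, limma adjusted p = 0.099).

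**Figure D5:**
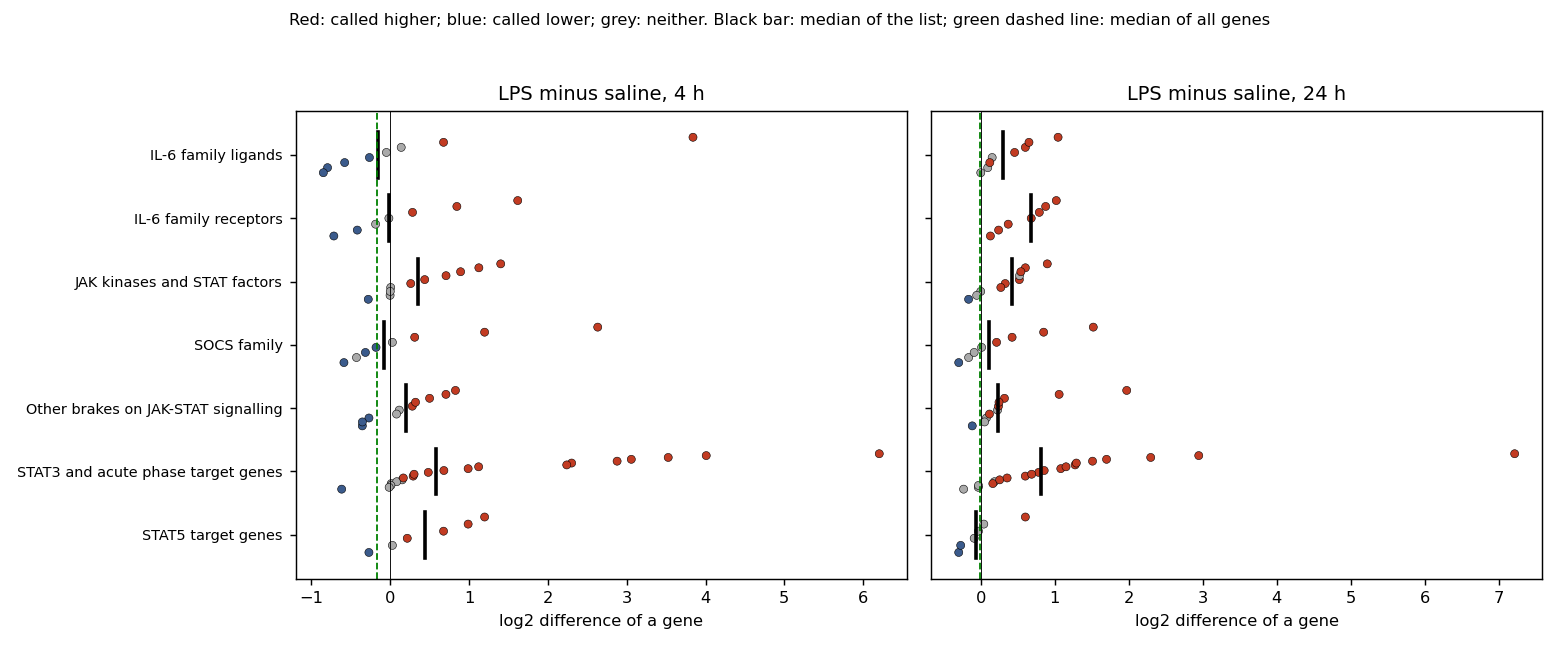
Differences between LPS and saline at 4 h (left) and 24 h (right) for each gene of the pathway lists, in log2 units (1 point per gene, black bar for the median of the list, dashed line for the median of all genes, separate horizontal scales). All 7 receptor genes, with Lifr by probe A_52_P579352, are higher at 24 h, and Saa3 is the point at 6.20 and 7.21 among the STAT3 and acute phase targets.

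The genes whose levels followed Socs3 most closely over the 12 arrays were Isg20, Angptl4, Hcar2, Casp4 and Ifit2, with Pearson correlations of 0.996 to 0.999 across arrays. Osmr (A_51_P319460) was followed most closely by Mx2, Csf2rb, Tnfrsf1a, Rhoj and Csf2rb2 (0.993 to 0.998), and Cish by Asph, Myo1d, Arrdc4, Crlf3 and Ppp1r3d (0.994 to 0.995). These are descriptions over 12 arrays that share 4 groups and 2 scan runs, so few independent levels stand behind each correlation. Isg20, for example, stood at a mean of -0.08 after saline and 2.50 after LPS at 4 h, and -1.71 after saline and -0.24 after LPS at 24 h. Like Socs3, it was higher in saline 4 h than in LPS 24 h.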

How the data were processed

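RNA of 12 hippocampi was read on Agilent arrays in 1 colour (Cy3), per the labels' protocols. The deposited scanner files hold the fluorescence intensity of 45018 spots per array; the background had been subtracted, per the file headers, by version 10.7.3.1 of Agilent Feature Extraction, where the submitters' processing notes give 9.1. The deposited matrix holds log2 values with array medians of 6.98 to 6.99; its steps are not given in the sources used here, and the values of probes printed once lay within 0.126 of normexp correction (offset 50) with quantile normalization.

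The processed intensity of 43379 transcript spots (926 outlier spots left out, 0 saturated) was scaled by each array's 75th percentile, taken as log2 and averaged over spots of a probe. Gene names are those of the newer of 2 annotation versions in the files; the older names 17 of the 18 member probes. For the lists, an accession in the RefSeq table named 27479 probes, a symbol 5478 and a synonym 679, and 7538 kept the file's name. Camp, Elane, Ccr2, Ms4a1 and Il31ra were too dim, and Lif, Ly6g, Kcnj13 and Hbb-b1 had no probe by that symbol. Some genes of the pathway are not reported here and are in none of the list counts.

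All 4 group means were fitted over 12 arrays in 1 model with limma 3.58.1 in R 4.3.3 (lmFit, eBayes, two-sided, Benjamini-Hochberg over 27681 probes), with errors as SE of the fit. The number of arrays limits the precision. The procedure was tested on simulated data. The members, lists and tests were chosen with earlier results of these data known. Named beyond the members are up to 4 genes per list and LPS comparison with the smallest adjusted p and non-overlapping arrays, and the 5 genes most correlated with Socs3, Osmr and Cish. Alternatives changed background correction, scaling, filter, probe rule, arrays in the fit, blocks, weights, threshold and control group. No exon or UTR annotation on build mm9 was used here.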

Additional observations from a re-analysis of the deposited data

Results flagged for a closer look

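The difference between the 24 h and the 4 h response to LPS, tested as an interaction, passed an adjusted p of 0.05 for 12 member probes. It was -3.69 log2 units for Il6 (whose signals at 24 h were not well above background), -0.81 for Il6ra (A_51_P415863), 0.66 for Il6st, -1.67 for Lifr A_52_P438170, 0.89 for Lifr A_52_P579352, 0.18 for Osmr A_51_P319460 and -0.55 for Osmr A_52_P495729. It was -0.62 for Stat3, 1.01 for Socs1, -1.49 and -1.20 for the Socs2 probes and -1.11 for Socs3. Time after injection and scan run cannot be told apart in any of them.

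Among the other named genes, the later response was higher for Cntf (1.45), Ctf1 (1.31), Ebi3 (0.39), Clcf1 (1.62), Il11ra1 (0.85), Il27ra (0.87), Tyk2 (0.33), Socs6 (0.53), Socs7 (1.28), Usp18 (1.26), Ptpn11 (0.41), Ptpn6 (1.41), Saa3 (1.01), Lrg1 (1.62), Serpina3n (0.85) and Timp1 (1.62). The Clcf1 value sets a 24 h difference against one between 4 h signals that were not well above background, and is no measured change of response. The later response was lower for Stat2 (-0.19), Jak3 (-0.23), Jak1 (-0.42), Socs4 (-0.30), Ptpn1 (-0.38), Il4ra (-0.96), Hp (-1.37), Bcl6 (-1.02) and Pim2 (-0.17).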

How the results depend on the processing

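With saline arrays of the other time as controls, directions turned most often. At 4 h the value became 1.64 for Socs1, 0.34 for Il6st, -0.39 for Il6ra A_51_P415855, -0.26 for Lifr A_51_P113182, 0.60 for Lifr A_52_P579352, -0.0050 for Socs2 A_52_P84037, 0.85 for Cntf, 1.34 for Ctf1, 1.33 for Ebi3, 0.91 for Il11ra1, -0.19 for Cntfr, -0.30 for Jak1, 0.83 for Socs6, -0.042 for Socs4, 0.92 for Ptpn11, 1.74 for Igf1 and -0.69 for Pim2. At 24 h it became -0.71 for Il6 (between signals not well above background, so no measured direction), -1.80 for Socs1, 0.75 and 0.86 for the Socs2 probes, -0.31 for Socs3, -0.51 for Il6st, -0.13 for Osmr A_51_P319460, -0.99 for Cntf, -1.73 for Ctf1, -1.498 for Il11ra1, -0.75 for Stat5a, -0.92 for Socs6, -0.083 for Usp18, -0.065 for Ptpn6, -0.26 for Timp1 and -1.13 for Osm. With normexp background correction, Stat3 A_52_P569499 gave -0.00033 at 4 h, the difference between responses gave 0.22 for Il6ra A_51_P415863 and 0.047 for Osmr A_52_P495729, and the saline comparison gave -0.41 for Lifr A_52_P438170, -0.44 and -0.081 for the Il6ra probes and -0.40 for Lifr A_51_P113182. Ptpn11 at 4 h gave 0.15 with quantile normalization and 0.11 in the deposited matrix. In the saline comparison Stat3 A_51_P201480 gave 0.32 with quantile normalization, 0.34 in the deposited matrix and 0.19 with the percentile over probes detected on all arrays, where Osmr A_52_P495729 gave 0.17. Leaving out saline 4 h replicates in turn, Lifr A_52_P297113 gave -0.37 to 0.61 at 4 h and -0.72 to 0.27 between saline groups, the upper ends without replicate 3. The causes were not tested.

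Probes called over the array at 4 h fell from 19659 to 11983 with normexp background correction, and at 24 h from 11547 to 4100; with the other saline arrays there were 22122 at 24 h. Member probes higher at 4 h numbered 11, but 7 among probes detected on all arrays (Il6 and Il6ra then gave no value) and 6 with 1 probe per gene, fewer probes by construction. Member probes lower at 24 h numbered 1 in place of 2 with normexp, the percentile over detected probes, the deposited matrix, no filter, 1 probe per gene, the 2 groups alone, slide as a block, array weights or an adjusted p under 0.01, and 6 with the other saline arrays, which gave 1 lower at 4 h. Leaving out single arrays gave 1 to 2 lower and 8 to 11 higher at 24 h, 2 lower and 11 to 12 higher at 4 h. The median of all probes at 4 h was -0.08, and -0.25 with median scaling or 0.03 with the percentile over detected probes; between saline groups it was -0.02, and -0.43 with normexp.

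Replicate numbers were not used as pairs in the main fit: deviations of same-numbered arrays correlated at 0.08, 0.17 and -0.15 at 4 h and 0.03, 0.08 and 0.07 at 24 h. At 24 h same-numbered arrays shared a slide, and the other pairs gave -0.064 to 0.006. At 4 h same-numbered arrays lay on different slides. With the replicate block, 11 member probes stayed higher and 2 lower at 4 h, and the 24 h call of Il6ra A_51_P415855 was lost (limma adjusted p = 0.052). Slide as a block gives no saline comparison. Signal over background limits Il6, Il6ra and Stat3 A_52_P569499, which were not well above it in saline 4 h.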
